A study of Arabidopsis thaliana with 4 samples.

Results

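The JAZ genes of Arabidopsis thaliana encode jasmonate repressors, and this account covers 10 of them, JAZ1 to JAZ10, out of 27444 nuclear protein-coding genes. They were taken by name from a gene table, where 8 matched by symbol and 2, JAZ2 and JAZ9, by synonym. The set was chosen by a survey of the SMXL6 peaks given below, so counts of bound members are a description and carry no test. Chromatin was immunoprecipitated with an antibody against the HA tag and sequenced from whole seedlings aged 2 weeks. The 2 SMXL6-HA libraries came from smxl6/7/8 pSMXL6:SMXL6-HA plants, triple mutants in SMXL6, SMXL7 and SMXL8 that express tagged SMXL6 from the SMXL6 promoter. The 2 control libraries came from smxl6/7/8 plants with no transgene, so both groups share the triple mutation and differ in the transgene. The labels do not say whether the transgenic plants are a single line, or whether replicates were grown separately, so the spread between replicates may be technical.

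JAZ proteins hold back jasmonate responses by binding transcription factors such as MYC2 and bringing in corepressors, in part through the adaptor NINJA and the TOPLESS proteins. When the active hormone, jasmonoyl-isoleucine, is present, the receptor COI1 binds JAZ proteins through their Jas domain and they are degraded. MYC2 in turn activates many JAZ genes, which gives the pathway a negative feedback. SMXL6 is itself a repressor that is degraded on perception of a hormone, strigolactone. The question addressed here is where SMXL6 lay on chromatin around the JAZ genes.

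The authors gave a list of peaks for each replicate, SMXL6-HA against the control of the same number. List 1, from replicate 1, has 1789 peaks (median width 2824 bp), and list 2, from replicate 2, has 1442 (median width 1236 bp). Each peak carries a score that is the authors' own, and a rank of 1 is the highest score of its list. Read depth is unknown, and no summit, read count or fold over control was given, so a value has no error of its own and the only replication is the presence of a peak in both lists. Peak positions are on TAIR10, counted from 1. "Lower" and "higher", or "below" and "above" a gene, refer to smaller and larger chromosome coordinates. The strand of each gene was not used, so which end is its start was not analysed.

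SMXL6 peaks lay over 6 of the 10 JAZ genes. JAZ6, JAZ1, JAZ5 and JAZ9 had a peak in both lists. JAZ2 and JAZ3 had one only in list 2, with low scores, and JAZ4, JAZ7, JAZ8 and JAZ10 had none within 5000 bp in either list. No JAZ gene had a peak in list 1 alone. A peak lay within 5000 bp of 4 of the 10 JAZ genes in list 1, against 21.4% of all protein-coding genes, and of 6 of 10 in list 2, against 15.4%. Both lists had one at 4 of 10, against 12.2% of all genes, and at least 1 list did at 6 of 10, against 24.7%. Of all genes 3.28% had a peak within that distance in list 2 and not in list 1, as JAZ2 and JAZ3 did, and 9.26% had the opposite, which 0 JAZ genes showed.

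Each of these 6 genes was touched by a peak, not only neighboured by one. With peaks counted only where they overlapped the gene, the numbers of JAZ genes stayed at 4 in list 1, 6 in list 2 and 4 in both. The shares of all protein-coding genes were then 8.58%, 4.59% and 3.40%. When a peak counted only for the gene whose end was nearest its midpoint, the same 4 JAZ genes had a peak in both lists, against 3.11% of all genes. With scores of at least 100, JAZ1, JAZ5 and JAZ6 kept peaks within 5000 bp in both lists (3 of 10), against 5.33% of all genes, while JAZ9 kept only its list 1 peak and JAZ2 and JAZ3 had none. Since the JAZ genes were picked with their peaks known, these shares place the counts and do not test them.

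**Figure D1:**
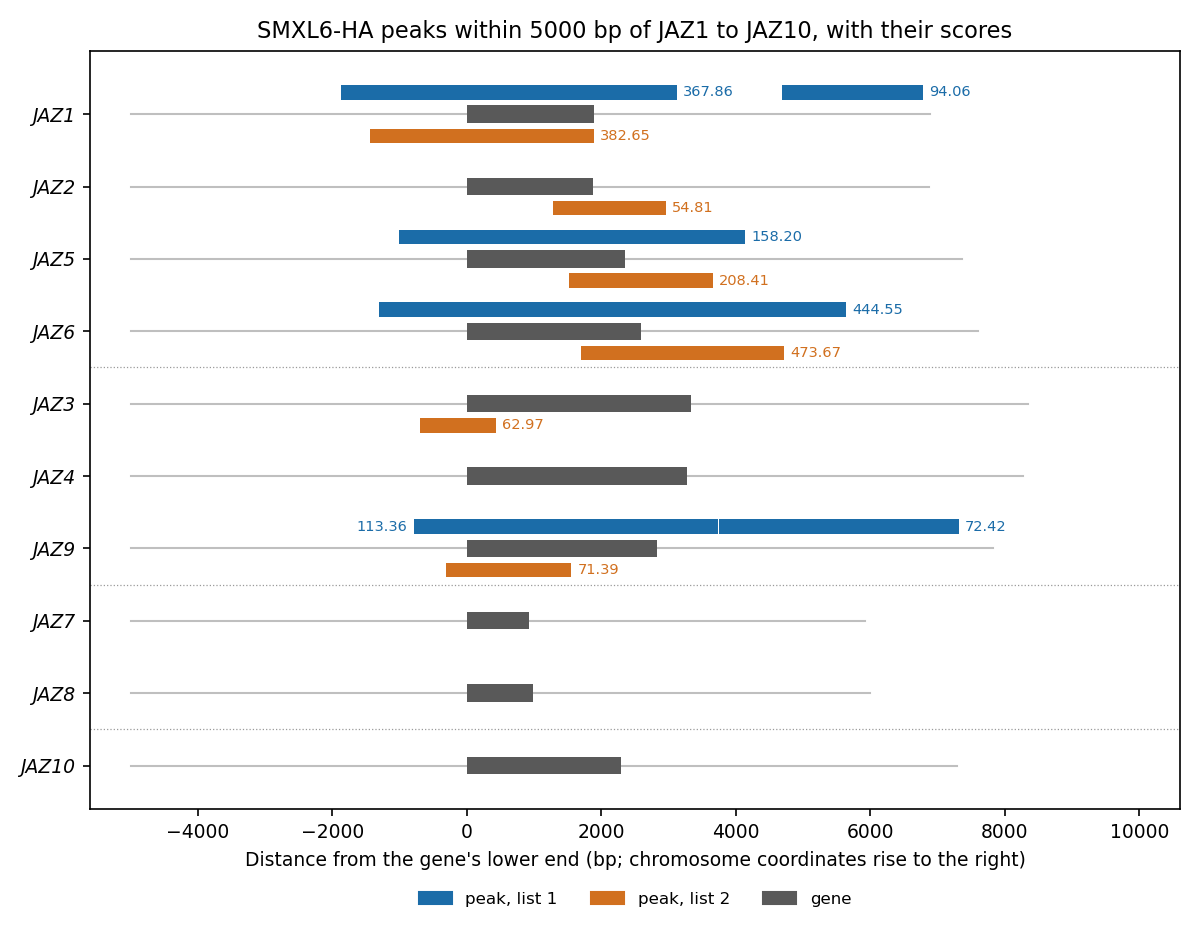
Peaks around each JAZ gene, drawn to scale against distance in bp from the gene's lower end, with list 1 peaks above the gene and list 2 peaks below it; the number beside a peak is its score, grey lines mark the 5000 bp on either side, and dotted lines separate the subgroups. List 1 peaks cover the whole of JAZ1, JAZ5, JAZ6 and JAZ9, while list 2 peaks cover 1 end of those genes and of JAZ2 and JAZ3. The list 2 peak of JAZ1 covers 99.8% of the gene and stops just short of its higher end.

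The highest scores in the family stood at JAZ6, in the subgroup of JAZ1, JAZ2, JAZ5 and JAZ6. Its list 1 peak spanned chr1:27272658-27279604, with a score of 444.55 and rank 59 of 1789. Its list 2 peak, chr1:27275661-27278690, had a score of 473.67 and rank 63 of 1442. JAZ6 thus stood in the top 3.30% of list 1 and the top 4.37% of list 2. The list 1 peak was 6947 bp wide and ran beyond both ends of the gene into EDA25 on the lower side and AT1G72460 on the higher side. In list 2 the peak was 3030 bp wide, covered 34.8% of the gene at its higher end and ran 2128 bp past that end. At least as wide were 1.84% of list 1 peaks and 1.66% of list 2 peaks.

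JAZ1, one of the best studied JAZ repressors and a direct partner of COI1, came next. In list 1 its peak lay at chr1:6619904-6624894 with a score of 367.86 and rank 87, and in list 2 at chr1:6620335-6623664 with a score of 382.65 and rank 93. Here both lists covered nearly all of the gene, 100% in list 1 and 99.8% in list 2. Both also passed the lower end, by 1873 bp in list 1 and 1442 bp in list 2. Only the list 1 peak passed the higher end, by 1226 bp, where it reached AT1G19190. A second list 1 peak, chr1:6626463-6628563, lay 2795 bp above JAZ1 with a score of 94.06 and rank 867. That peak had no counterpart in list 2 and stood closer to other genes than to JAZ1. Its midpoint was 170 bp from an end of ARF19, an auxin response factor gene, and 175 bp from an end of AT1G19210. AT1G19200 and AT1G19190 were also nearer to it than JAZ1.

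JAZ5, the closest relative of JAZ6, had lower scores. Its list 1 peak at chr1:5954140-5959289 scored 158.20, rank 415, and its list 2 peak at chr1:5956670-5958819 scored 208.41, rank 252. These ranks are within the top 23.2% and 17.5% of their lists. The outline was like that of JAZ6, with the whole gene covered in list 1 and 35.7% of it, at the higher end, in list 2. The list 2 peak extended 1308 bp past the higher end. On the lower side, the list 1 peak ran 1015 bp beyond JAZ5 into UBP1B, whose end is 12 bp away.

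JAZ9, of the subgroup of JAZ3, JAZ4 and JAZ9, had the weakest of the peaks found in both lists. The list 1 peak, chr1:26653741-26658266, scored 113.36 with rank 671. In list 2 the peak, chr1:26654213-26656084, scored 71.39 with rank 975, which is in the lower part of that list (67.6% of the way down). It covered 55.1% of the gene from the lower end. A second list 1 peak began 924 bp above JAZ9, at chr1:26658274-26661843, with a score of 72.42 and rank 1175. It did not overlap a list 2 peak, and GH9B1, a glycosyl hydrolase gene, had the nearest end, 929 bp from its midpoint against 2708 bp for JAZ9.

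The order of the 4 genes by score was the same in both lists, with JAZ6 first, then JAZ1, JAZ5 and JAZ9. JAZ6 and JAZ1 differed by 28 ranks in list 1 and 30 in list 2, and with 1 value per list their order has no measured spread.

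**Figure D2:**
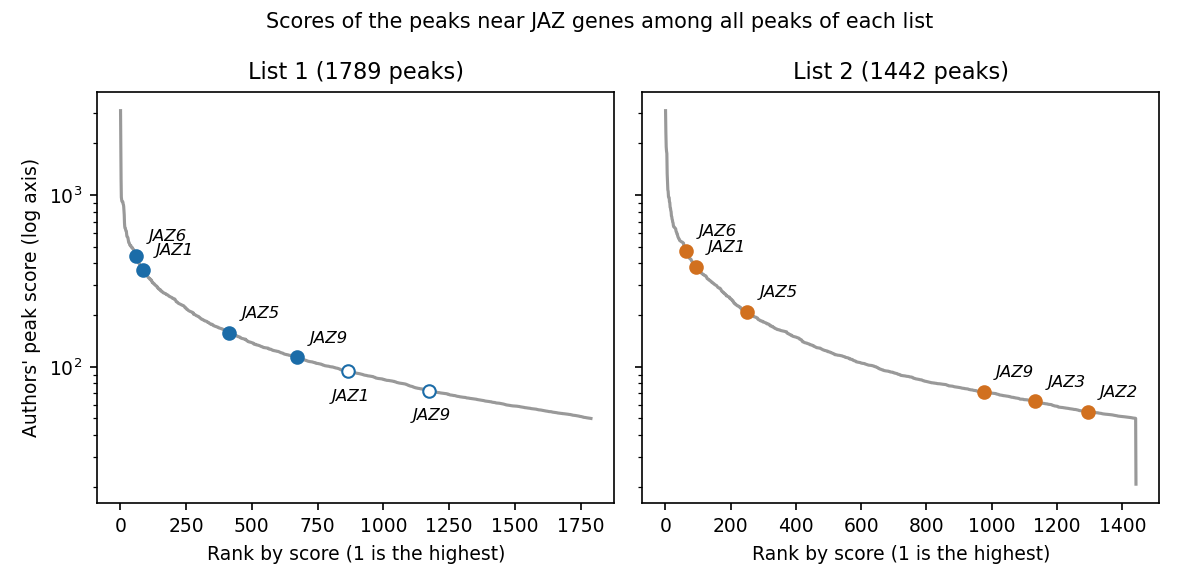
Authors' score (log axis) against rank for all peaks of list 1 (left) and list 2 (right), as grey curves; filled circles are peaks over a JAZ gene and open circles are peaks within 5000 bp that do not overlap it. JAZ6 and JAZ1 lie on the steep upper part of both curves, and JAZ2 and JAZ3 appear only near the lower end of list 2.

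At the 2 JAZ genes found in list 2 alone, the scores were close to the bottom of that list. JAZ2, the closest relative of JAZ1, had a peak at chr1:28149851-28151531 with a score of 54.81 and rank 1294. The peak covered 31.8% of the gene at its higher end and ran 1085 bp past it. JAZ3, known from the jai3 mutant with reduced jasmonate sensitivity, had a peak at chr3:6119009-6120144 with a score of 62.97 and rank 1133. That peak covered 13.1% of JAZ3 at its lower end and extended 698 bp beyond. Of the 310 list 2 peaks that scored no higher than the JAZ3 peak, 168 (54.2%) overlapped a list 1 peak, against 74.7% of the whole list. In list 1, the nearest peak to JAZ2 was 5917 bp away with a score of 92.45, the closest of any peak just outside the limit of 5000 bp around the 10 genes. The nearest to JAZ3 was 30085 bp away. Within the limit, the farthest peak was the one 2795 bp above JAZ1.

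JAZ4, JAZ7, JAZ8 and JAZ10 had no peak within reach of that limit. JAZ7 and JAZ8 are short proteins of the same subgroup that lack the usual degron and so resist removal by COI1, and JAZ10 is known for splice forms that resist degradation. Around JAZ10 the nearest peak was 9016 bp away in list 1, and 13748 bp away in list 2. JAZ8 had its nearest list 1 peak at 13767 bp, and its nearest list 2 peak at 13975 bp. For JAZ7 the distances were 15067 bp (list 1) and 19254 bp (list 2). These distances were below the medians over all protein-coding genes, 21199 bp in list 1 and 28961 bp in list 2. JAZ4 lay in a long stretch without peaks, with the nearest at 247394 bp in list 1 and 262816 bp in list 2. Only 4.53% of protein-coding genes in list 1 and 3.89% in list 2 were at least as far from a peak. Absence of a peak does not show absence of SMXL6, since the depth that sets the detection limit is unknown.

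By subgroup, 3 of JAZ1, JAZ2, JAZ5 and JAZ6 had a peak in both lists, against 12.2% of all genes, and all 4 had one in list 2, against 15.4%. Of JAZ3, JAZ4 and JAZ9, 1 had a peak in both lists and 2 had one in list 2. JAZ7 and JAZ8 had 0 of 2 and JAZ10 had none. The close relatives JAZ5 and JAZ6 were alike in having peaks in both lists, while JAZ1 had them in both and JAZ2 only in list 2. Groups of 1 to 4 genes are too small to say that subgroups differ, and no test was made. The 4 genes with peaks in both lists are all on chromosome 1, which carries 7 of the 10 JAZ genes. On that chromosome 13.6% of all protein-coding genes had a peak within 5000 bp in both lists, against 11.0% to 12.2% on the other chromosomes.

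The position of the peaks relative to the flanks was looked at after the positions had been seen, and is a description only. In list 2 each of the 6 peaks over a JAZ gene covered only 1 end of it, and at 5 genes this was the end with the longer distance to the next protein-coding gene. At JAZ1 the flank on the lower side is 2771 bp and that on the higher side 155 bp, and the peak covered the lower end. That peak covered 99.8% of JAZ1 and stopped just short of its higher end, so its count as 1 end only is narrow. JAZ3 has flanks of 3178 bp below and 297 bp above, with the peak at the lower end. The peaks of JAZ5 and JAZ6 covered the higher end, with flanks of 2960 bp and 2779 bp there against 12 bp and 33 bp on the lower side. JAZ2, with 1474 bp above and 1089 bp below, also had its peak at the higher end. JAZ9 was the exception, with the peak at the lower end, where the flank is 886 bp, and 1779 bp on the other side. Among all genes that overlap no other and had list 2 peaks over 1 end only, 61.9% of 829 had the peak at the end with the longer flank. The 6 JAZ genes are too few to set apart from that share.

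List 1 peaks covered both ends of JAZ1, JAZ5, JAZ6 and JAZ9 and in 4 of 4 cases ran further beyond the end with the longer flank, against 53.1% of 612 genes covered in this way. The 4 JAZ genes are too few to set apart from that share. At JAZ6, for example, the list 1 peak ran 3042 bp past the higher end and 1310 bp past the lower. At JAZ9 the difference was narrow, with 916 bp past the higher end and 788 bp past the lower. The list 2 peak lay wholly within the list 1 peak at each of these 4 genes. The list 1 peak was wider by a factor of 2.29 at JAZ6, 2.40 at JAZ5 and 2.42 at JAZ9, while at JAZ1 the widths were 4991 bp in list 1 and 3330 bp in list 2.

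**Figure D3:**
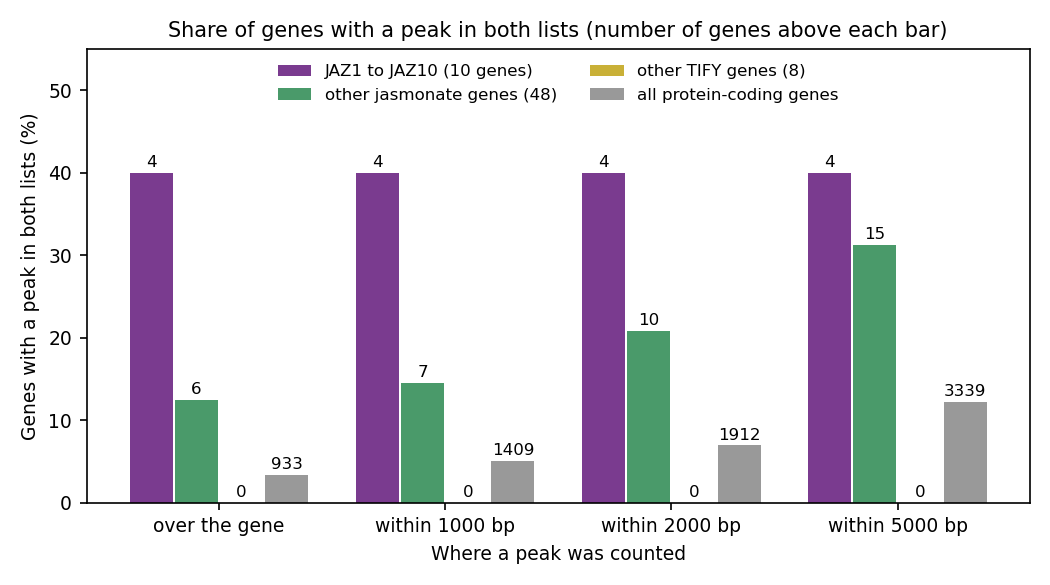
Percentage of genes with a peak in both lists (vertical axis from 0) for JAZ1 to JAZ10, other jasmonate genes, other TIFY genes and all protein-coding genes, with peaks counted over the gene or within 1000, 2000 or 5000 bp; numbers above the bars are genes. The JAZ count is 4 at every distance, while the count of all genes goes from 933 over the gene up to 3339 within 5000 bp.

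JAZ proteins belong to the TIFY family, named for a motif in its shared domain, and none of 8 other TIFY genes had a peak within 5000 bp in either list. These were JAZ11, JAZ12, the PEAPOD genes PPD1 and PPD2, which limit leaf growth, and TIFY8, ZIM, ZML1 and ZML2. Of all genes 24.7% had a peak in either list, and a count of 0 among 8 is too small a base to set against that share.

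Among other genes of the jasmonate pathway 15 of 48 had a peak within 5000 bp in both lists, against 4 of the 10 JAZ genes and the 12.2% of all genes given above. The peaks of the 2 lists did not have to overlap for this count. Counting only list 1 peaks that overlapped a list 2 peak by at least 1 bp gave 13 of 48 (12.9% of all genes). Overlap of at least 50% of both peaks gave 10 of 48 (6.18%). By the nearest gene end the count was 9 of 48, against 3.11% of all genes. Over the gene it was 6 of 48, against 3.40%, and 4 of these 6 were TPL, TPR1, TPR2 and TPR3. None of the 15 had a higher score than JAZ6 in either list. The group of receptor and corepressor genes had 5 of 10 with peaks within 5000 bp in both lists, against 12.2% of all genes. It had 4 of 10 over the gene (3.40% of all genes) and 4 of 10 by the nearest gene end (3.11%). The peaks of TPL, TPR1, TPR2 and TPR3 overlapped their genes. TPR1 had the highest of these in list 1, with scores of 233.77 in list 1 and 344.40 in list 2, and TPR3 the highest in list 2, with 170.94 and 380.50. TPL scored 206.58 and 264.99, and TPR2 116.69 and 160.51. For HDA6, a histone deacetylase gene, the peaks lay 4020 bp and 4486 bp above it with scores of 130.59 and 128.30, and AT5G63130 had the nearer end. NINJA, ASK1, HDA19 and TPR4 had no peak in either list, and COI1 had only a list 1 peak 3312 bp above it, with a score of 50.26.

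Of 10 transcription factor genes 5 had peaks within 5000 bp in both lists, against 12.2% of all genes. The count was 3 within 2000 bp (6.97% of all genes), 1 within 1000 bp (5.13% of all genes) and 2 by the nearest gene end (3.11%). It was 1 with scores of at least 100 (5.33%) and 0 for peaks over the gene (3.40%). Counts of 1 or 0 of 10 are near the shares of all genes. JAM1 and JAM2 encode bHLH repressors that compete with MYC2. JAM1 had a list 1 peak over the gene that scored 295.24 and a list 2 peak 1292 bp above it that scored 195.14, nearest to AT2G46520. Lower-scoring peaks lay 242 bp below JAM1 in list 1 (87.05) and 1281 bp below it in list 2 (97.46). For JAM2 the highest peaks were at different places, 3498 bp above the gene in list 1 (94.41) and 466 bp below it in list 2 (79.63). List 1 had a peak below JAM2 as well, 63 bp away with a score of 80.42. MYB21, a regulator of stamen development, had peaks 1153 bp and 1315 bp below it with scores of 57.39 and 84.93. The related MYB24 had peaks 2673 bp and 2813 bp below it with scores of 55.63 and 172.05, nearer to AT5G40340. ORA59, an ERF activator of defence genes, had list 1 and list 2 peaks on opposite sides with scores of 99.26 and 101.76. MYC2 and MYC3, the main targets of JAZ repression, had no peak in either list, and MYC4 had a list 1 peak 1559 bp below it with a score of 75.01, nearest to PYR1.

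In hormone synthesis 2 of 15 genes had peaks within 5000 bp in both lists, near the 12.2% of all genes. The count was 7 of 15 in list 1 (21.4% of all genes) and 3 of 15 in list 2 (15.4%). It was 8 of 15 in either list (24.7%), with AOC1, AOC2 and AOC3 counted through the 1 shared peak given below. DAD1, a lipase gene, had peaks over the gene with scores of 116.45 and 74.61. LOX4, a lipoxygenase gene, had a list 1 peak 3490 bp below it (181.14) and a separate list 2 peak over its lower end (56.86). LOX4 is 31951 bp above JAZ6, and LOX3 is 19812 bp above JAZ5. LOX3 had no peak within 5000 bp. The allene oxide cyclase genes AOC1, AOC2 and AOC3 lay within reach of a single list 1 peak with a score of 158.16 that had no list 2 counterpart near these genes. AOC4 and JAR1 also had peaks in list 1 only (highest scores 120.03 and 105.82), and LOX2 in list 2 only (57.24). Of 6 breakdown genes CYP94B3 alone, a hydroxylase gene for the active hormone, had peaks in both lists within 5000 bp. That count is near the 12.2% of all genes. Its peaks lay over the gene (3.40% of all genes) and near the bottom of both lists. They scored 52.85 (rank 1704) in list 1 and 54.57 (rank 1302) in list 2. With scores of at least 100 the count was 0 (5.33% of all genes). The transporter gene GTR1 had a list 1 peak 1530 bp above it (133.66) and a list 2 peak over its higher end (58.04). Of 6 response genes CORI3 alone had peaks in both lists within 5000 bp, a count near the 12.2% of all genes, and 0 had them within 2000 bp. The CORI3 peaks lay 2244 bp and 3805 bp above it with scores of 124.67 and 299.85, and were nearest to BTI1.

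**Figure D4:**
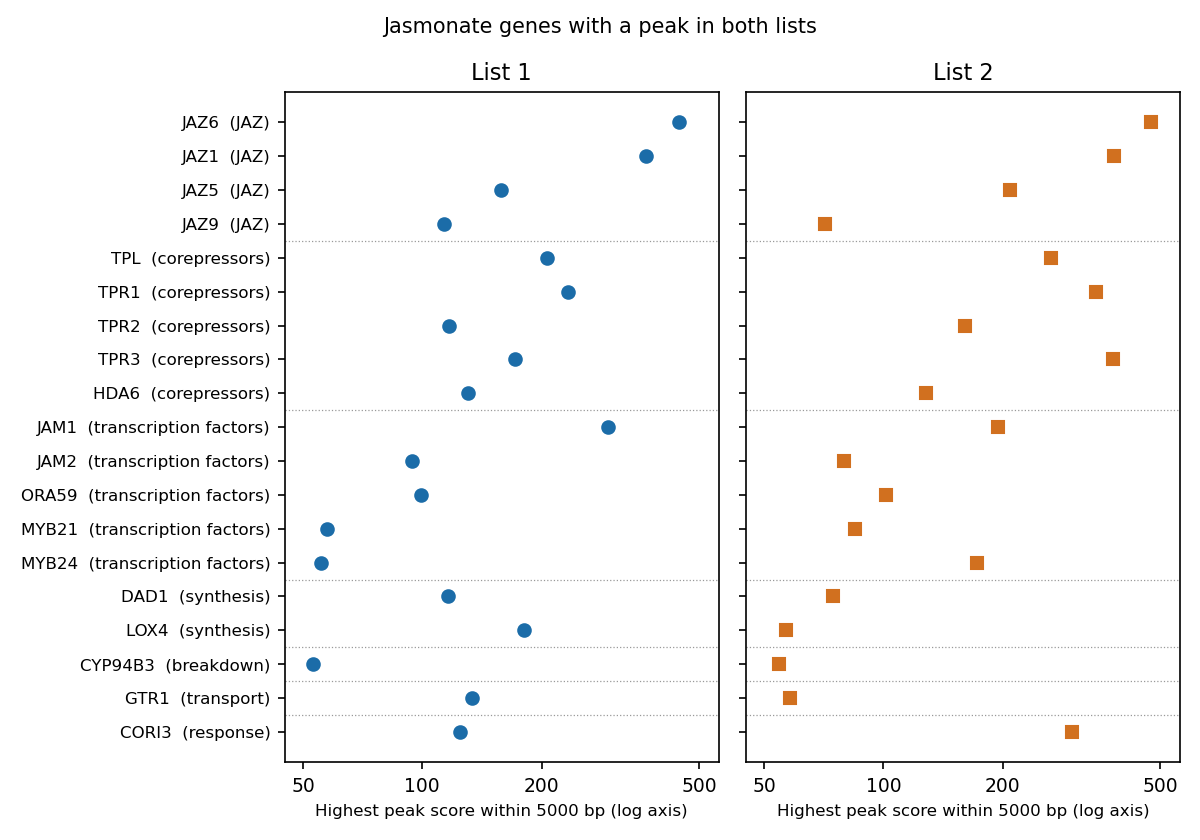
Highest authors' peak score within 5000 bp (log axis) of each jasmonate gene with a peak in both lists, with list 1 on the left and list 2 on the right; dotted lines separate the groups named in brackets, and scores are to be compared within a list only. JAZ6 has the highest score in each list, and JAZ9 is among the lower scores of list 2.

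Genes whose peaks ranked most like those of JAZ6 were found by the sum of rank differences over the 2 lists, counting a peak only for the gene whose end lay nearest. BOB1 differed by 2 ranks in sum, with scores of 441.76 in list 1 and 470.13 in list 2. AT5G25280 differed by 10 ranks (454.42 and 441.89) and ATTPPA by 21 (496.70 and 452.10). With only 2 lists, this likeness describes height alone.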

How the data were processed

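ChIP-seq with an anti-HA antibody was made from 4 libraries, 2 of SMXL6-HA and 2 of control seedlings. Peaks were called per replicate pair, per the labels. The submitters' processing notes name MACS 1.4.2, BWA 0.7.10-r789, SAMtools and the build TAIR10, without parameters. The deposited files give a score per peak, the authors' own value, used only within a list. List 1 peaks are wider, and wide peaks reach more genes.

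Gene ends and names came from a RefSeq table of TAIR10.1, which gives neither strand nor sequence, so the planned side by strand and promoter motifs were not run and no sequence is printed. Distances run from peak edge to gene edge, with a limit of 5000 bp. Of 64 symbols of other TIFY and jasmonate genes 56 matched (45 by symbol, 5 by synonym and 6 by the spelled-out name). The other 8, absent under these names, were not used: JAZ13, MYC5, ERF109, JOX1 to JOX4 and JAT1. Counting was checked against a direct count on made-up intervals. Python 3.11.15, pandas 2.3.3, NumPy 2.4.6 and Matplotlib 3.10.9 were used.

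No test was run, because the members and lists were chosen with earlier results of these data known. Named were all JAZ genes, all list members with peaks in both lists, all genes nearer than the JAZ gene to a JAZ peak, and the 3 genes nearest in rank to the highest JAZ gene. Members of the lists without peaks in both lists, the genes that JAZ peaks run into and PYR1, BTI1, AT2G46520, AT5G63130 and AT5G40340 were named after their values were seen. Alternatives changed the distance, a score minimum of 100, the gene a peak counts for, the use of midpoints, list 1 widths, the overlap needed, and left out each replicate.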

Additional observations from a re-analysis of the deposited data

How the results depend on the processing

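Of 75 alternative counts 67 were within 1.5 times the value reported. These 67 include every alternative for JAZ7 and JAZ8, for JAZ10 and for other TIFY genes, where 0 stayed 0. A count of 0 could not rise at a smaller distance or with a score minimum, so the tally does not measure stability. The count of JAZ genes with a peak in both lists was 4 within 2000 bp (6.97% of all genes) and within 1000 bp (5.13%). It was also 4 with the nearest gene end (3.11%), with midpoints (10.5%) and with list 1 peaks cut to the list 2 median width (11.6%). Overlap of at least 50% of both peaks left 1, JAZ1, where 66.7% of the list 1 peak was overlapped, against 41.4% to 43.6% at JAZ5, JAZ6 and JAZ9; at that setting 6.18% of all genes had a peak in both lists, so 1 of 10 is near the share of all genes. With scores of at least 100, 3 JAZ genes had a peak in both lists (JAZ1, JAZ5 and JAZ6, against 5.33% of all genes), 3 in list 2 and 1, JAZ9, in a single list, and the subgroup of JAZ3, JAZ4 and JAZ9 had 0 in both. Leaving out a replicate leaves the other list alone. With list 1 used by itself, 4 JAZ genes and 22 other jasmonate genes had a peak, against 21.4% of all genes. With list 2 used by itself, 6 and 16 did, against 15.4%. The counts were 3 to 4 for JAZ1, JAZ2, JAZ5 and JAZ6 and 1 to 2 for JAZ3, JAZ4 and JAZ9 (2 with list 2). They were 0 for JAZ7, JAZ8, JAZ10 and other TIFY genes. Other jasmonate genes with a peak in both lists numbered 15 as reported. Within 1000 bp they numbered 7 (5.13% of all genes, where all genes fell to 1409, against 3339 within 5000 bp). They numbered 7 with scores of at least 100 (5.33%) and 9 with the nearest gene end (3.11%). The alternatives for subgroups were added after seeing the data. No paired analysis was possible because the results come from no test; the authors had already set each SMXL6-HA library against the control of its number. Depth is unknown, so a missing peak sets no limit on binding.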
